A study of Mus musculus with 14 samples.

Results

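Oxidative phosphorylation is run by a chain of protein complexes in the inner mitochondrial membrane. Described here are 43 nuclear genes of that chain in splenocytes of mice immunized for the collagen-induced arthritis (CIA) model. The spleens were taken before the booster injection. The genes were taken as a named list of subunits, with no threshold on a measured value, although earlier results of these data were known when the list was made: 24 of complex I, 4 of complex II, 6 of complex III, cytochrome c, and 8 of complex IV. A probe was assigned to a gene by its RefSeq accession, and each gene was read from its brightest probe among those that 7 or more of the 14 arrays measured well above background. In all, 42 of the 43 genes were measured, out of 24908 genes tested on the array, and Cox5b matched no probe. All 42 passed the filter in every sample, being well above background on 14 of 14 arrays with no missing value and no saturated spot, so none entered through 1 genotype alone.

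Splenocytes came from 7 WT and 7 Sting gt/gt mice. The paper names the C57BL/6 background for the Sting gt/gt line and gives no strain for the WT mice. The mice were immunized at an age of 10 to 14 weeks with chicken type II collagen (CII) in complete Freund's adjuvant (CFA). The spleens were taken 2 weeks later. Every mouse in both groups had received CFA + CII, so no unimmunized level is given. The Sting gt/gt (golden ticket) mice are homozygous in every cell for an ENU-induced variant of Sting, the adaptor of cytosolic DNA sensing. Their line came from a colony abroad and the WT mice were bought locally, and the paper reports breeding and housing of mice in its own facility. Genotype and colony of origin cannot be told apart. RNA was taken from all splenocytes after lysis of red blood cells and put on 1 one-colour Agilent array per mouse. In such bulk RNA, fewer cells of a type and less RNA per cell cannot be told apart.

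Complex I takes electrons from NADH, and complex II (succinate dehydrogenase, also an enzyme of the TCA cycle) takes them from succinate. Both pass them through ubiquinone to complex III, from there cytochrome c carries them to complex IV, and complex IV hands them to oxygen. Complexes I, III and IV pump protons as they do so, and ATP synthase uses the gradient to make ATP. Complexes I, III and IV are built from nuclear and mitochondrially encoded subunits, whereas complex II is encoded by nuclear genes alone. In the spleen, resting lymphocytes draw much of their ATP from this chain, and activated B and T cells raise both it and glycolysis.

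The files held the scan time and slide of each array. Replicates 1 to 3 of both genotypes were scanned on one day and replicates 4 to 7 on a later day, called scan days 1 and 2, so the replicate sets and the scan days are the same split. On scan day 2 the 4 WT arrays lay on slides 4 and 5 and the 4 Sting gt/gt arrays on slide 6, so slide and genotype cannot be told apart there. The 75th percentile of the processed signal was between 562 and 766 on the 14 arrays, and 30781 to 34400 probes per array were well above background. As a check of the tissue, all 10 B cell, 10 T cell, 8 plasma cell and 10 macrophage and monocyte markers listed passed the filter. Of 10 neutrophil and 10 erythroid markers, 9 and 8 matched a probe, and all of these passed. The Sting1 probe differed by 0.035 between genotypes on the log2 scale (SE 0.10), and a point variant need not alter it, so it was no check of the labels.

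Promoter motifs are given as a description, and their part in the array values was not tested. RefSeq promoter windows of the GRCm38.p6 build, 250 bases before to 50 bases after the start, were at hand for 33 of the 43 genes. They were searched on both strands for NRF1 (GCGCATGCG), ETS factors (CCGGAAGT) and YY1 (AAGATGGC), sites known from mitochondrial promoters, and none of these 3 motifs contains another. The NRF1 letters were found in 3 of 33 members (9.09%; Cycs, Ndufa8 and Uqcrc1) against 1.95% of 27025 genes, and the YY1 letters in 5 of 33 (15.2%; Ndufa9, Ndufb8, Ndufc1, Ndufs4 and Ndufs7) against 3.19%. The ETS letters were found in Ndufs3 alone (3.03% against 4.31% of all genes). All 5 YY1 matches read in the direction of the gene and began 23 to 39 bases after the start. The windows of 4 members described below are shown 5′ to 3′ on the gene's strand, with the matched letters in capitals. They lie at chr13:114388045-114388344 (Ndufs4), chr6:126849095-126849394 (Ndufa9), chr6:50566520-50566819 (Cycs) and chr2:36049289-36049588 (Ndufa8), all on the minus strand. A match describes these letters and is not a measured binding site.
Ndufs4: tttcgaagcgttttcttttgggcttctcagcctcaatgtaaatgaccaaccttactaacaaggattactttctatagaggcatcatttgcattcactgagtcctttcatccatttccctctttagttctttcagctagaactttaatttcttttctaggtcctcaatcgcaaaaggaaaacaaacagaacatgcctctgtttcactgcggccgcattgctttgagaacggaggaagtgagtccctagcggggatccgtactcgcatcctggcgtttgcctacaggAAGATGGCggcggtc
Ndufa9: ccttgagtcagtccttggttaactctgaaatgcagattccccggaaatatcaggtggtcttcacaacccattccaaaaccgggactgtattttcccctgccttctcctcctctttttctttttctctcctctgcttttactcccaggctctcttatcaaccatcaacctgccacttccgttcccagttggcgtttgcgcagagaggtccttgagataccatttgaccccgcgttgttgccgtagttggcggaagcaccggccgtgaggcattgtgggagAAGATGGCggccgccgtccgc
Cycs: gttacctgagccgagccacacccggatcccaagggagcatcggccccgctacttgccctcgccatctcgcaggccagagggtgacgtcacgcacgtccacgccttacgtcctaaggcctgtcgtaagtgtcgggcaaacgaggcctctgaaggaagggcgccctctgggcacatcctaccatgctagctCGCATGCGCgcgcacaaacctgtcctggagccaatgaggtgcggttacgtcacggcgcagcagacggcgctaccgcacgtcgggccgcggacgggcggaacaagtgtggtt
Ndufa8: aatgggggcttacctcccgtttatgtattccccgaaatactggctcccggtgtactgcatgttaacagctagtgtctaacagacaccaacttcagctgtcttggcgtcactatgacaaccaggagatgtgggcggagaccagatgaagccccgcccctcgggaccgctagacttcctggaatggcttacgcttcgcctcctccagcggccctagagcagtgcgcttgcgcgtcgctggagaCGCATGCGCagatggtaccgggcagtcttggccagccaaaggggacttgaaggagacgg
The YY1 letters of Ndufs4 and Ndufa9 began 36 and 30 bases after the start. The NRF1 letters of Cycs and Ndufa8 read on the opposite strand and began 61 and 9 bases before it.

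Members of the chain rose and fell together between mice. Values below are log2 processed signals with each array's 75th percentile at 0, and levels of different probes are not compared. Averaged over the 42 members, each relative to its own mean over the 14 arrays, WT arrays lay between -0.22 and 0.16 (mean -0.04 ± 0.15, SD, n = 7) and Sting gt/gt arrays between -0.15 and 0.22 (mean 0.04 ± 0.15, SD, n = 7). The groups overlapped, and the spread within each genotype exceeded the difference between their means.

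Single mice stood out more than genotypes did. In Sting gt/gt replicate 5, 40 of the 42 members were above their own median over all arrays, and in Sting gt/gt replicate 1, 36 were. In WT replicates 4 and 7 only 1 and 2 members were. The counts in the remaining WT arrays were 34, 14, 33, 11 and 27 for replicates 1, 2, 3, 5 and 6. In the remaining Sting gt/gt arrays they were 32, 10, 23, 25 and 6 for replicates 2, 3, 4, 6 and 7, so both genotypes held arrays with most members high and arrays with most members low.

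**Figure D1:**
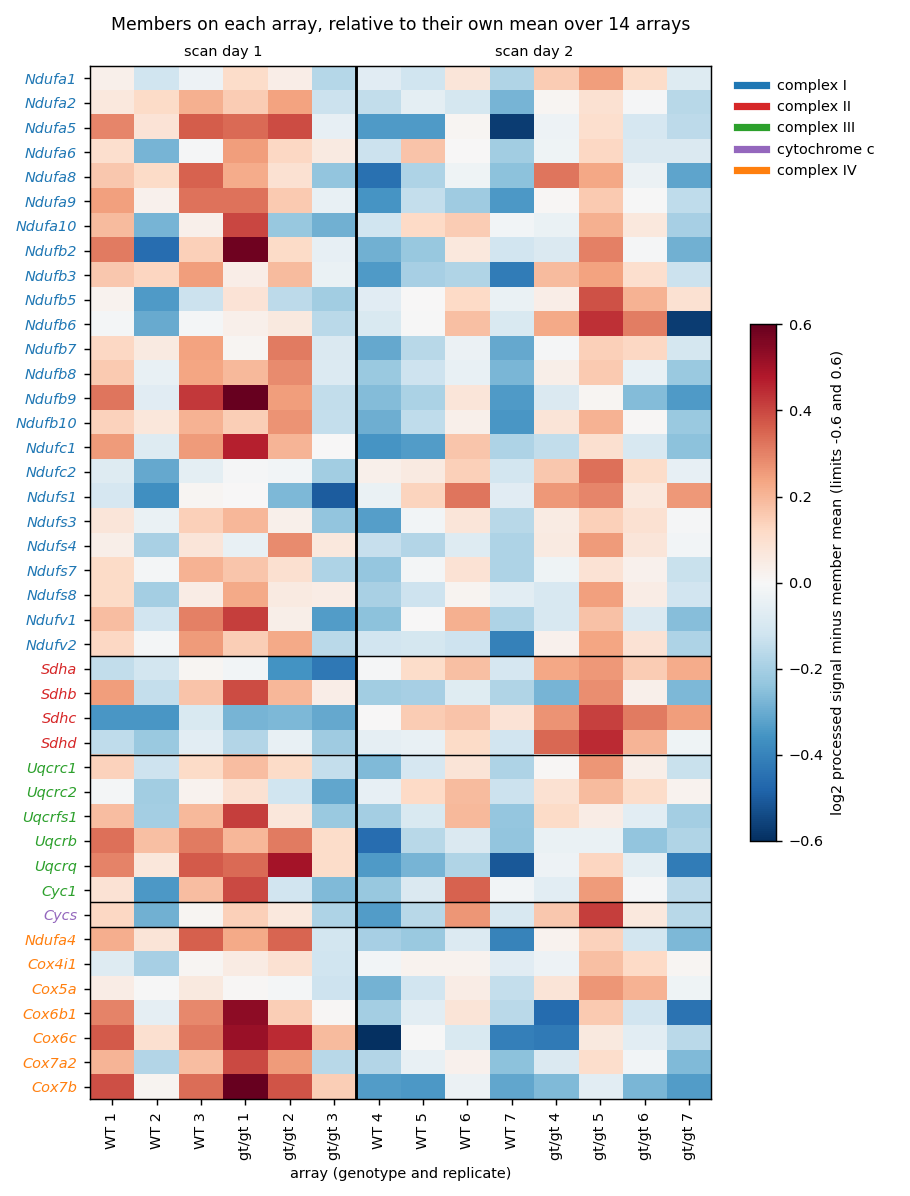
Each row is a member, coloured by complex, and each column an array, split by scan day; colour is the log2 processed signal minus the member's mean over 14 arrays, from -0.6 (blue) to 0.6 (red). Whole columns are red (Sting gt/gt replicates 1 and 5) or blue (WT replicates 4 and 7), and between scan days some rows turn from red to blue (Cox7b) and others from blue to red (Sdhc).

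**Figure D2:**
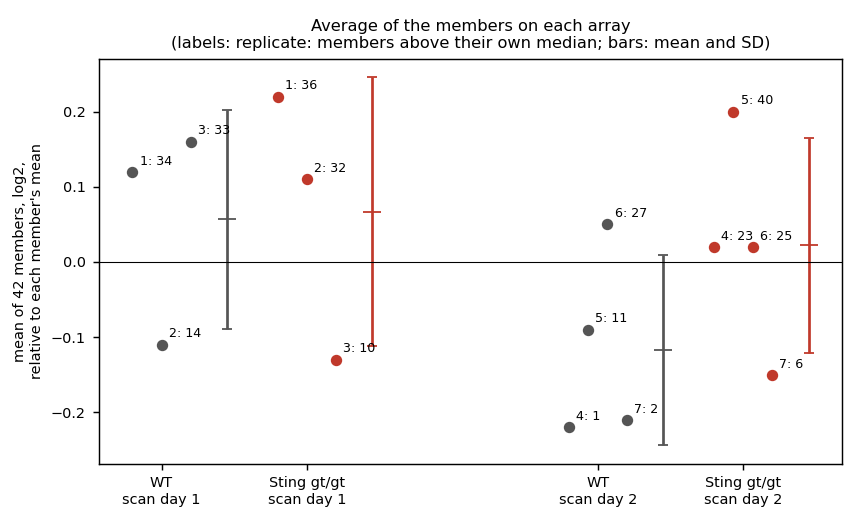
Points are arrays, with the mean log2 deviation of the 42 members on the vertical axis, and each label gives the replicate and how many members were above their own median. Bars are the mean and SD of 3 or 4 arrays; the WT and Sting gt/gt arrays overlap on both scan days.

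Across the 14 arrays, the 861 pairs of members had a median correlation (Pearson's r) of 0.58. With the mean of each genotype and scan day removed it was 0.71, as high as among 78 genes of the mitochondrial ribosome (0.71) and below 31 proteasome genes (0.79) and 10 proliferation markers (0.95). Among 16 ATP synthase subunits it was 0.80, and among 12 complex I subunits outside the list 0.68. Among 12 subunits of complexes III and IV outside the list it was 0.06. All genes of an array share its RNA, labelling and scaling, so these values describe the arrays. The correlation of a member with the mean of the other 41 had a median of 0.78, against a median of 0.03 for the 24855 tested genes outside the list that had a value on all arrays. This measure was not computed for other gene lists, so it does not set the members apart from them. Uqcrc1, a core protein of complex III, was highest at 0.98, followed by Ndufs7 (0.93), a core iron-sulfur subunit of complex I. The lowest were Sdhc (-0.12), Sdha (0.09), Ndufs1 (0.20) and Sdhd (0.29), and with the genotype and day means removed these reached 0.64, 0.65, 0.80 and 0.74.

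Other gene groups also varied between these arrays. The mean of 10 proliferation markers was 0.41 in Sting gt/gt replicate 1, 0.19 in replicate 5 and -0.39 in replicate 7, where the members' mean was 0.22, 0.20 and -0.15. In WT replicates 3 and 7 it was 0.34 and -0.33, where the members' mean was 0.16 and -0.21. Sting gt/gt replicate 3 had the lowest proliferation mean of all arrays (-0.55) and a members' mean of -0.13. In WT replicates 1, 2, 4, 5 and 6 the proliferation mean was 0.31, -0.24, -0.15, 0.08 and 0.34. The members' mean there was 0.12, -0.11, -0.22, -0.09 and 0.05. In Sting gt/gt replicates 2, 4 and 6 the proliferation mean was -0.0, 0.09 and -0.11. The members' mean there was 0.11, 0.02 and 0.02. The mean of 31 proteasome genes was 0.11, -0.16, 0.15, -0.21, -0.09, 0.11 and -0.14 in WT replicates 1 to 7. In Sting gt/gt replicates 1 to 7 it was 0.16, 0.04, -0.21, 0.03, 0.26, 0.05 and -0.11. The mean of 10 B cell markers was 0.41 and 0.61 in WT replicates 4 and 7 and 0.33 in Sting gt/gt replicate 3, where the members were low. It was -0.46 in WT replicate 3 and -0.27 in Sting gt/gt replicate 5, where the members were high. In WT replicates 1, 2, 5 and 6 the B cell mean was -0.22, -0.08, 0.22 and 0.06. The members' mean there was 0.12, -0.11, -0.09 and 0.05. In Sting gt/gt replicates 1, 2, 4, 6 and 7 the B cell mean was -0.12, -0.13, 0.04, -0.31 and -0.07. The members' mean there was 0.22, 0.11, 0.02, 0.02 and -0.15. The part of these genes in the members' values was not tested.

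Between genotypes, 39 of the 42 members were slightly higher in Sting gt/gt mice and none changed beyond the adjusted threshold. The median difference was 0.093 on the log2 scale (range -0.05 to 0.19, with standard errors of 0.08 to 0.19), against 0.017 for all genes tested, 54.5% of which were higher. By limma, 1 member passed an unadjusted p under 0.05, which is 2.38% of the members and below the 3.48% of all genes that did. After Benjamini-Hochberg adjustment over all genes no member passed, and 1 gene in all did (0.00401%). The 3 members that were lower were Ndufa10 and Ndufv1 of complex I and Cox6b1 of complex IV, by 0.02 to 0.05. Without scaling between arrays the median of all genes was -0.037, and 31 members were above 0 and 36 above that median. Leaving out single arrays moved the members' median between 0.057 (without WT replicate 7) and 0.127 (without Sting gt/gt replicate 7).

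**Figure D3:**
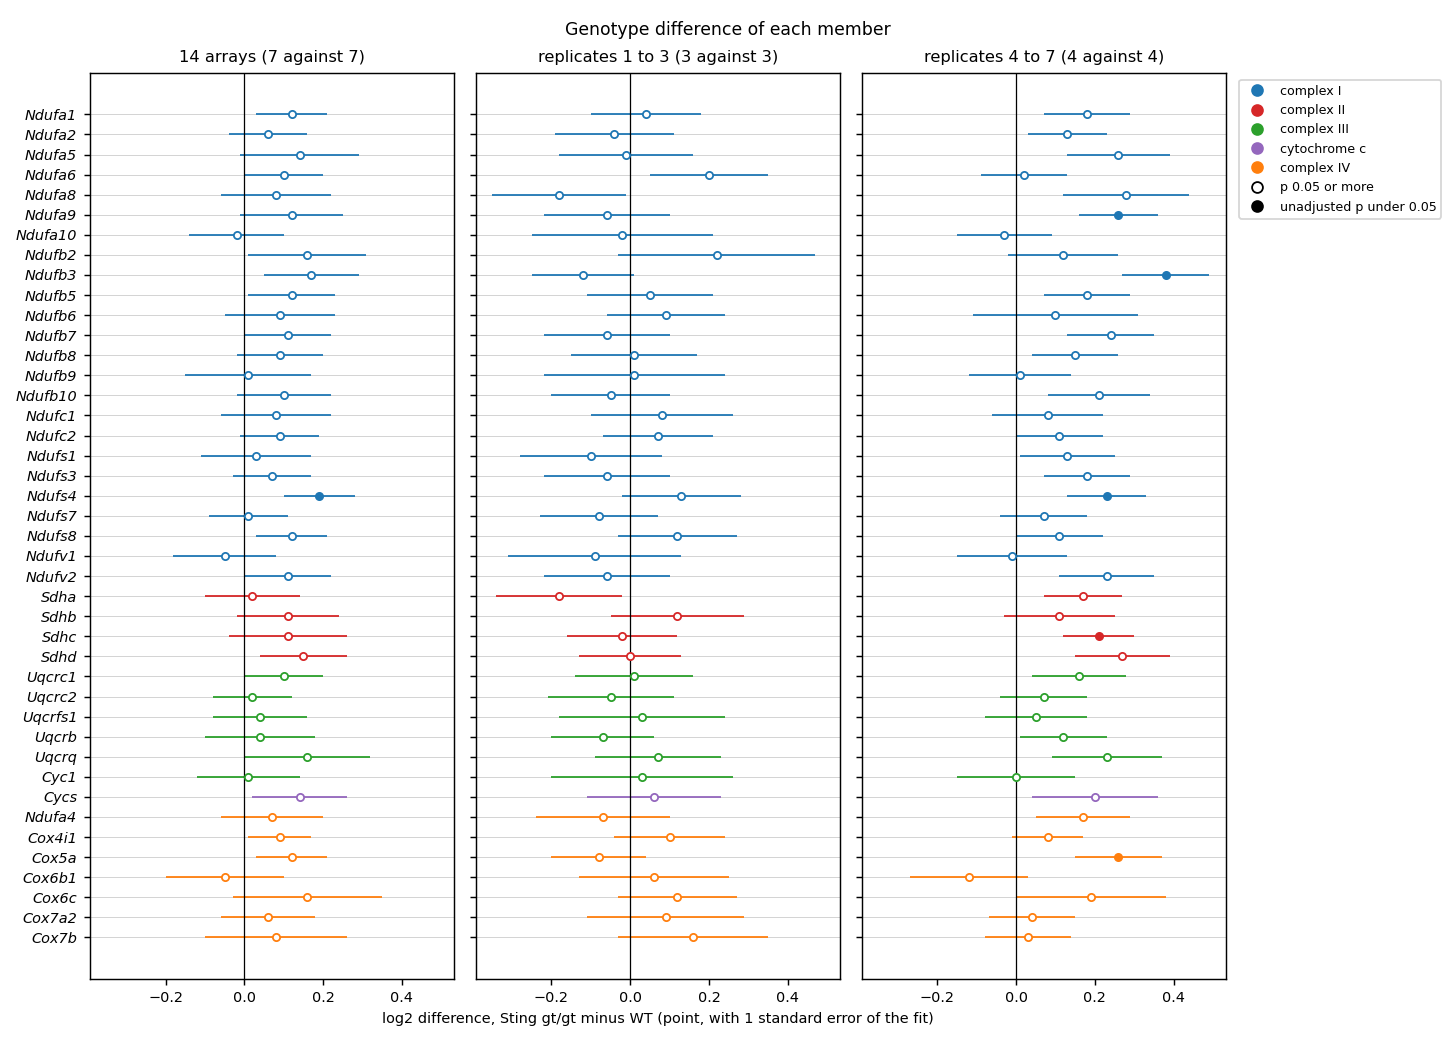
Each point is a member's log2 difference, Sting gt/gt minus WT, with a bar of 1 standard error, for all 14 arrays and for replicates 1 to 3 and 4 to 7 apart; filled points have an unadjusted p under 0.05. Points lie slightly right of 0 on the left and right panels (medians 0.093 and 0.141) and around it in the middle (0.013), and 1, 0 and 5 points are filled.

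The member that passed was Ndufs4, an accessory subunit of complex I that is needed for its assembly and activity, and whose loss causes a fatal encephalopathy in mice and Leigh syndrome in people. Its level was 3.31 at the lowest, 3.37 in the median and 3.58 at the highest in WT, and 3.46, 3.57 and 3.79 in Sting gt/gt. The Sting gt/gt values ran higher and the groups overlapped. The difference was 0.19 (SE 0.09), with an unadjusted p of 0.0462 and an adjusted p of 1.0 in limma, and an exact permutation test (two-sided, 3432 regroupings of the arrays) gave p = 0.0122. In limma the call was lost with the replicate number as a block (unadjusted p = 0.0823), with median centring (0.109), without scaling (0.211) and with slide as a random block (0.115). It was also lost without any 1 of WT replicates 2, 4, 5, 6 and 7 and Sting gt/gt replicates 2 to 6, while the difference stayed between 0.16 and 0.22.

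Among the other complex I genes, 21 of 23 were higher and 2 lower. Ndufb3, an accessory subunit of the membrane arm, was 3.64, 3.88 and 4.31 in WT (lowest, median, highest) and 3.93, 4.16 and 4.30 in Sting gt/gt, a difference of 0.17 (SE 0.12). Ndufa1, another small membrane-arm subunit, was 4.84, 4.95 and 5.09 in WT and 4.85, 5.13 and 5.27 in Sting gt/gt, a difference of 0.12 (SE 0.09). Ndufs8, a core subunit that holds iron-sulfur clusters, was 4.19, 4.33 and 4.51 in WT and 4.28, 4.44 and 4.64 in Sting gt/gt (0.12, SE 0.09). None of these 3 passed, and in each the groups overlapped. Ndufa2, a matrix-arm subunit, differed by 0.06 (SE 0.10) between 5.25, 5.47 and 5.74 in WT and 5.36, 5.54 and 5.77 in Sting gt/gt. Its groups overlapped as well. Ndufa9, which holds the joint of the membrane and matrix arms, was 2.14, 2.35 and 2.82 in WT and 2.34, 2.50 and 2.82 in Sting gt/gt (0.12, SE 0.13). Ndufb7, a membrane-arm subunit, was 5.12, 5.39 and 5.67 in WT and 5.32, 5.44 and 5.74 in Sting gt/gt (0.11, SE 0.11). Ndufa8, also of the membrane arm, was 1.89, 2.31 and 2.69 in WT and 2.02, 2.43 and 2.66 in Sting gt/gt (0.08, SE 0.14). All 3 overlapped and none passed.

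In complex II, all 4 genes were higher by 0.02 to 0.15 and none passed. Sdhd, 1 of the membrane anchors, was 4.13, 4.29 and 4.47 in WT and 4.14, 4.33 and 4.80 in Sting gt/gt (0.15, SE 0.11). Sdhb, the iron-sulfur subunit, was 4.51, 4.58 and 4.97 in WT and 4.44, 4.76 and 5.11 in Sting gt/gt (0.11, SE 0.13). Sdha, the flavoprotein that oxidizes succinate, was 3.27, 3.41 and 3.60 in WT and 2.99, 3.57 and 3.68 in Sting gt/gt, and it differed by 0.02 (SE 0.12), and its sign turned with several settings. The groups overlapped for all 4 genes.

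In complex III, all 6 genes were higher by 0.01 to 0.16, and none passed. Uqcrq, a small accessory subunit, was 5.61, 5.94 and 6.49 in WT and 5.70, 6.23 and 6.62 in Sting gt/gt (0.16, SE 0.16). The core protein Uqcrc1 differed by 0.10 (SE 0.10), the Rieske iron-sulfur protein Uqcrfs1 by 0.04 (SE 0.12) and cytochrome c1 (Cyc1) by 0.01 (SE 0.13). Cycs, which encodes somatic cytochrome c, the carrier between complexes III and IV and a trigger of the apoptosome, was 4.31, 4.55 and 4.91 in WT and 4.46, 4.71 and 5.06 in Sting gt/gt. Its difference was 0.14 (SE 0.12) and it did not pass.

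In complex IV, 6 of 7 measured genes were higher, and none passed. Cox4i1, the ubiquitous form of subunit IV, was 6.03, 6.21 and 6.25 in WT and 6.11, 6.28 and 6.41 in Sting gt/gt (0.09, SE 0.08). Cox5a was 5.65, 5.93 and 5.99 in WT and 5.81, 5.94 and 6.20 in Sting gt/gt (0.12, SE 0.09). Both sets of values overlapped. Ndufa4, once assigned to complex I and found in complex IV, differed by 0.07 (SE 0.13).

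Another probe was tested for 8 members. For 5 of them (Ndufa5, Ndufb5, Sdha, Sdhb, Cycs) both probes were higher in Sting gt/gt mice. For Ndufa10 and Ndufv1 the brighter probe was lower (-0.02 and -0.05) and the dimmer higher (0.07 and 0.03), and for Uqcrb the brighter was higher (0.04) and the dimmer lower (-0.06).

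The replicate sets were compared apart. In replicates 1 to 3, 23 of 42 members were higher in the Sting gt/gt arrays, and their median difference was 0.013 against 0.016 for all genes. None passed an unadjusted p under 0.05, which 3.86% of all genes did, and none passed after adjustment, which 1 gene did (0.00401%). Without scaling and with median centring the median of all genes was -0.052 and -0.057 in these arrays, and 11 members were above 0. The members' median turned to -0.067 without WT replicate 2, and to -0.057 and -0.019 when Sting gt/gt replicates 1 and 2 were dropped, and it was 0.115 when the third Sting gt/gt array was.

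In replicates 4 to 7, 38 of 42 members were higher, with a median of 0.141 against 0.017 for all genes. Of them 5 passed an unadjusted p under 0.05 (11.9%), which was a smaller share than the 23.3% of all genes that did. No member passed after adjustment, against 1.71% of all genes. The 5 were Ndufb3 (0.38, SE 0.11, adjusted p = 0.101 by limma), Ndufa9 (0.26, SE 0.10), Cox5a (0.26, SE 0.11), Ndufs4 (0.23, SE 0.10) and Sdhc (0.21, SE 0.09). The genotypes did not overlap for 3 members (Ndufb3, Ndufs4 and Sdhc), whereas 14.7% of all genes did not overlap in these arrays. The count of 5 moved with each single array: it was 1 without WT replicate 4, WT replicate 7, or Sting gt/gt replicates 4, 5 or 6, 2 without WT replicate 5, 8 without WT replicate 6 and 13 without Sting gt/gt replicate 7. The median was 0.093 without Sting gt/gt replicate 5 and 0.203 without WT replicate 6.

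**Figure D4:**
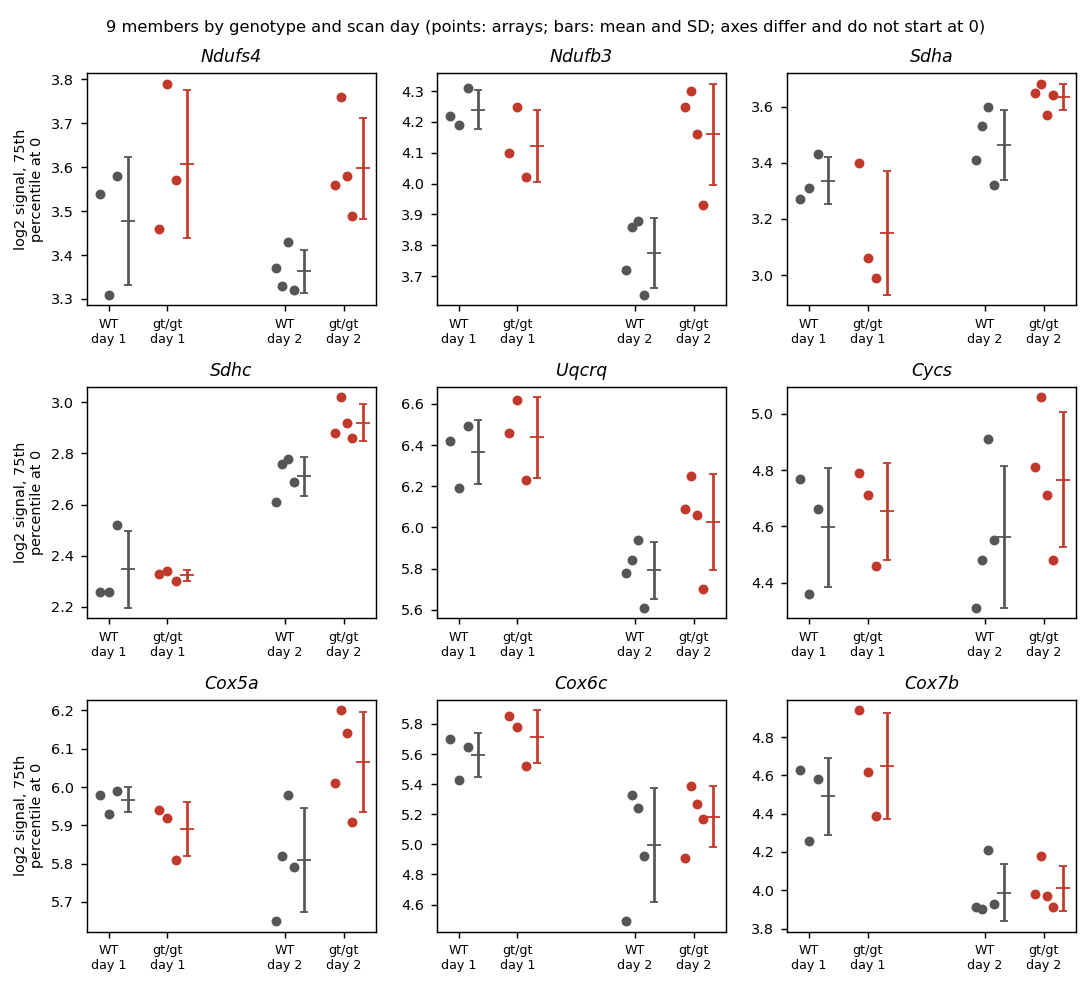
Points are single arrays of 9 members, by genotype and scan day, on the log2 scale with each array's 75th percentile at 0; bars are the mean and SD of 3 or 4 arrays, and the vertical axes differ between panels and do not start at 0. On scan day 2 the Sting gt/gt points of Ndufs4, Ndufb3 and Sdhc lie above all WT points, and between days Sdhc rises while Cox6c and Cox7b fall in both genotypes.

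Cell type markers moved in these arrays too. On scan day 2 the mean of 10 B cell markers was between 0.06 and 0.61 in WT and between -0.31 and 0.04 in Sting gt/gt, all 10 were lower (median -0.514), and 8 passed an unadjusted p under 0.05 and none after adjustment. On scan day 1, 8 of the 10 were higher (median 0.25) and 1 passed unadjusted. The mean of 8 plasma cell markers was between -0.19 and 0.13 in WT and between 0.22 and 0.68 in Sting gt/gt on scan day 2. Of these markers 6 were higher and 2 lower, and 5 passed unadjusted as higher, led by Sdc1 (CD138; 0.84, SE 0.12, adjusted p = 0.0307 by limma). On scan day 1, 5 of the 8 were lower and 2 passed unadjusted as lower. Of 8 erythroid markers, 6 were lower on scan day 2 and 5 passed as lower (median of the 8, -0.344). Neutrophil markers were higher in 9 of 9 (2 passed) and T cell markers in 3 of 10 (none passed). The part of these cell types in the members' values was not tested.

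A difference of the genotype effect between the replicate sets was tested by its interaction term. No member passed after adjustment, whereas 0.763% of all genes did, and 3 members passed an unadjusted p under 0.05 (7.14%), against 18.0% of all genes. They were Ndufb3 (0.50, SE 0.16), Sdha (0.35, SE 0.16) and Cox5a (0.34, SE 0.15), each more positive in replicates 4 to 7. Ndufb3 was 4.22, 4.19 and 4.31 in WT replicates 1 to 3 and 4.10, 4.25 and 4.02 in Sting gt/gt, then 3.72, 3.86, 3.88 and 3.64 in WT replicates 4 to 7 and 4.25, 4.30, 4.16 and 3.93 in Sting gt/gt. The genotypes overlapped on scan day 1, and on scan day 2 every WT array was below every Sting gt/gt array. Sdha was 3.27, 3.31 and 3.43 in WT replicates 1 to 3 and 3.40, 3.06 and 2.99 in Sting gt/gt, then 3.41, 3.53, 3.60 and 3.32 in WT and 3.65, 3.68, 3.57 and 3.64 in Sting gt/gt. The genotypes overlapped on both days for Sdha. Cox5a lost its call in 11 of 18 settings (any of 10 arrays left out, or no scaling) and Sdha in 15 (any of 12 arrays left out, quantile normalization, no scaling, or the series table), while Ndufb3 kept it under all 18 settings tried.

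Some members shifted more between scan days than between genotypes, with genotype in the model. By limma with Benjamini-Hochberg adjustment over all genes, 14 of 42 members differed between scan days, against 38.8% of all genes. Lower on scan day 2 were 10 members (21.6% of all genes were), and higher were 4 (17.1% of all genes). The median member shift was -0.135, against -0.013 for all genes. The members' count was 9 without Sting gt/gt replicate 2 and 10 to 19 without any other array. Over all genes it was 9659 with every array kept and 8232 to 9669 when arrays were left out. The split of the members' calls depended on the scaling: 4 higher and 10 lower with the 75th percentile at 0, 10 and 9 with quantile normalization, 8 and 3 with median centring, and 3 and 6 with none. Over all genes the split was, in the same order, 4269 and 5390, 5576 and 4546, 7404 and 3531, and 3487 and 4332. Median centring put the median of all genes at 0.147, and relative to the median of all genes 40 of 42 members kept their side under all 4 scalings.

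The direction differed by complex, although a difference between complexes was not tested. Of the 4 complex II genes, 3 were called as higher on scan day 2, as were 17.1% of all genes. Sdhc, a membrane anchor of the complex, was 2.26 to 2.52 on the 6 arrays of scan day 1 and 2.61 to 3.02 on the 8 arrays of scan day 2, a shift of 0.48 (SE 0.08, adjusted p = 0.000208) with no overlap. Sdha rose by 0.31 (SE 0.09) and Sdhd by 0.25 (SE 0.09), whereas Sdhb differed by -0.26 (SE 0.10) and did not pass. Ndufs1, the largest core subunit of complex I, rose by 0.35 (SE 0.11).

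Of 7 complex IV genes, 4 fell on scan day 2 and none rose. Cox7b, a small subunit, was 4.26 to 4.94 on scan day 1 and 3.90 to 4.21 on scan day 2, and it fell by 0.57 (-0.57, SE 0.10, adjusted p = 0.000594). Cox6c was 5.43 to 5.85 and then 4.49 to 5.39, and it also fell by 0.57 (SE 0.13, adjusted p = 0.00342). Neither overlapped between days. Cox6b1 and Ndufa4 fell by 0.36 and 0.33, while Cox4i1 and Cox5a shifted by 0.07 and 0.01 and did not pass. These calls depended on the scaling. Cox4i1 was called as higher with quantile normalization (0.31) and median centring (0.23), and Cox5a with quantile normalization (0.24). Cox6b1 and Ndufa4 were not called with median centring or without scaling.

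In complex III, the small subunits Uqcrq and Uqcrb fell by 0.50 (SE 0.10) and 0.42 (SE 0.08), and Uqcrb did not overlap between days. The other 4 genes of the complex shifted by -0.13 to 0.16 and did not pass. Of these, Uqcrc2 was called as higher with quantile normalization (0.22) and median centring (0.32). In complex I, Ndufa5, Ndufb9, Ndufc1 and Ndufa9 fell by 0.41, 0.40, 0.32 and 0.30. In all, 4 members did not overlap between scan days (Sdhc, Uqcrb, Cox6c and Cox7b), while 15.7% of all genes did not. Called under all 4 scalings were 6 members, namely Ndufs1, Sdha and Sdhc as higher and Uqcrq, Cox6c and Cox7b as lower.

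In the authors' series table of log2 values these shifts were nearly gone. The median absolute scan-day difference of the members was 0.20 in the scanner values and 0.03 in the series table, where no member and no gene passed after adjustment and 348 genes had an unadjusted p under 0.05. Sdhc shifted by 0.01 there and Cox7b by -0.01. The genotype median in the series table was 0.071, with 35 of 42 members higher, and Ndufs4 differed by 0.17 (unadjusted p = 0.0165 by limma). Between genotypes 1928 of 24908 genes had an unadjusted p under 0.05 there, against 868 in the scanner values.

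**Figure D5:**
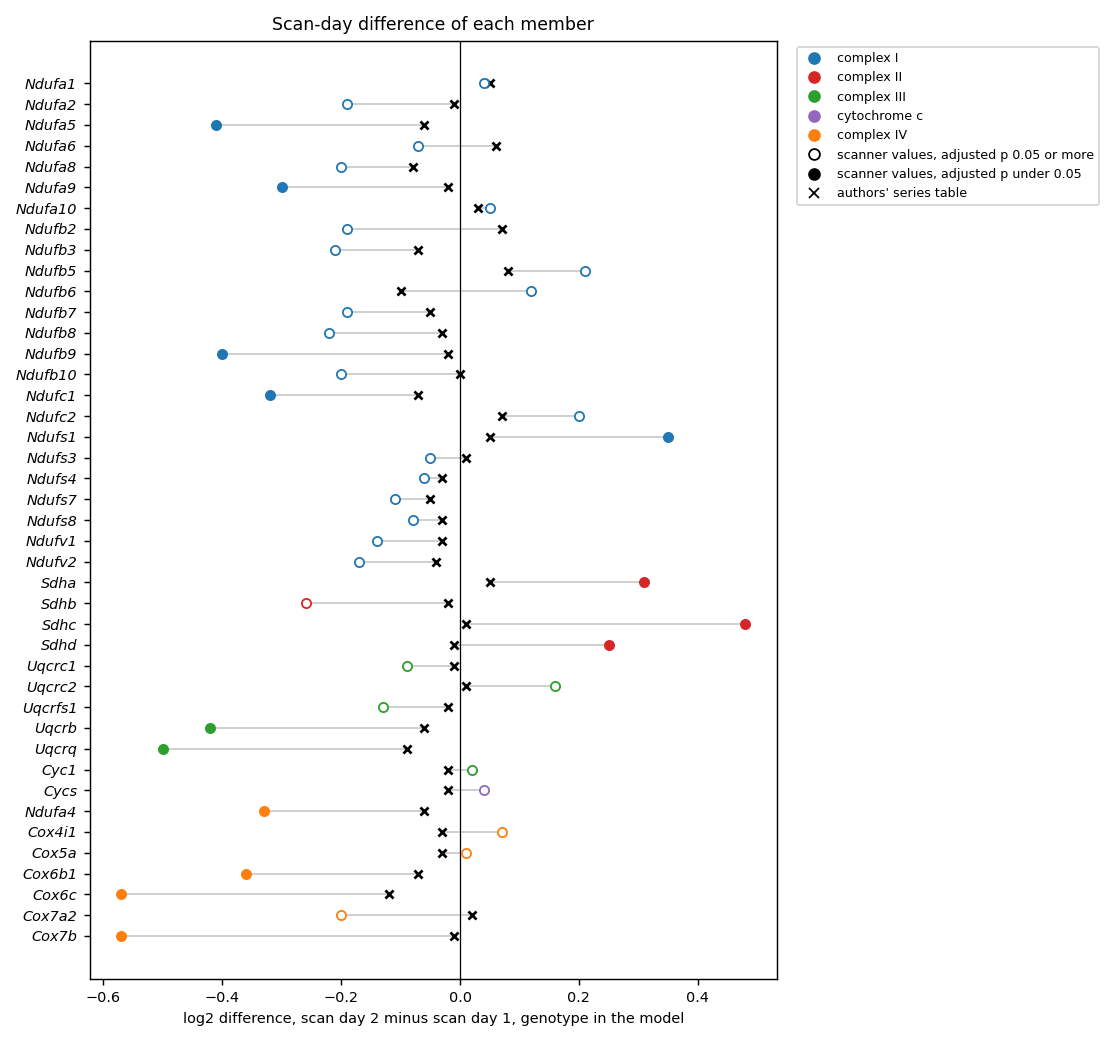
Circles are each member's log2 difference between scan days, genotype in the model, from the scanner values, filled where the adjusted p was under 0.05; crosses are the same difference in the authors' series table. Filled circles reach 0.48 (Sdhc) and -0.57 (Cox6c and Cox7b), while all crosses lie within 0.12 of 0.

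Most lists of further subunits and of related mitochondrial genes gave small differences of the same kind over the 14 arrays. Of all genes tested, 54.5% were higher, with a median of 0.017. All 12 further complex I subunits tested were higher in Sting gt/gt mice (median 0.119), as were 14 of 16 ATP synthase subunits (median 0.078) and 38 of 42 assembly factors (median 0.111), and none of these passed an unadjusted p under 0.05. Of 12 further subunits of complexes III and IV, 9 were higher and none passed. Of 78 mitochondrial ribosome genes 71 were higher (median 0.117). In that list 3 passed (3.85%, close to the 3.48% of all genes), led by Mrps27 (0.29, SE 0.11, adjusted p = 1.0 by limma). TCA cycle enzymes were higher in 15 of 17 (median 0.075) and 29 of 31 proteasome genes, which are not mitochondrial, were too (median 0.052), with none passing in either list. Glycolysis genes were higher in 20 of 23 (median 0.116) and none passed. Regulators of mitochondrial gene expression were higher in 11 of 16, with a median of 0.03 that was nearer to that of all genes, and none passed.

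In replicates 4 to 7 single genes of these lists passed an unadjusted p under 0.05 and none did after adjustment. The shares were below the 23.3% of all genes: 8 of 42 assembly factors (19.0%), 12 of 78 mitochondrial ribosome genes (15.4%), 3 of 17 TCA cycle enzymes (17.6%) and 5 of 31 proteasome genes (16.1%), all higher. Among the assembly factors, Cox10, which makes heme O for complex IV, was higher by 0.36 (SE 0.13). Among 16 regulators of mitochondrial gene expression, Tfb2m, a mitochondrial transcription factor, was higher by 0.28 (SE 0.09) and Ppargc1b, a coactivator of mitochondrial genes, differed by -0.37 (SE 0.10). ATP synthase had Atp5g2 (0.28, SE 0.09), and the further complex I subunits had Ndufa3 and Ndufs5 (both 0.27, SE 0.10).

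Of 23 glycolysis genes, 1 was higher in Sting gt/gt mice in replicates 1 to 3 (median -0.153) and none passed an unadjusted p under 0.05. In replicates 4 to 7, 21 were higher (median 0.315), 10 passed unadjusted (43.5%, against 23.3% of all genes) and none did after adjustment. Pkm, the pyruvate kinase of leukocytes, was higher by 0.45 (SE 0.14) and Hk2 by 0.49 (SE 0.17) in replicates 4 to 7. In the interaction, 23 of 23 were more positive in replicates 4 to 7 (median 0.427), against 31 of 42 members of the respiratory chain (median 0.140), and 8 of the 23 passed unadjusted (34.8%, against 18.0% of all genes) and none after adjustment. A difference between these lists was not tested. None of the 13 mitochondrially encoded subunits matched a probe by accession, and they were not analysed here.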

How the data were processed

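Splenocyte RNA of 14 mice was hybridised to one-colour Agilent arrays, and the deposited scanner files (Agilent Feature Extraction 11.0.1.1) hold processed signal intensity per spot. The authors' series table holds log2 values whose normalization is not given in the sources used here. Its columns correlated with the scanner values at r = 0.9968 to 0.9986, with medians of 5.4852 to 5.5178.

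Control spots and outlier-flagged spots were left out, spots of a probe were averaged, and log2 processed signals were set to each array's 75th percentile at 0. Kept were 31766 of 56605 probes, those that 7 or more arrays measured well above background, and the brightest stood for its gene, giving 24908 genes, of which 14729 had a symbol. Symbols came from RefSeq accessions and named 58.3% of probes.

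Genotypes were compared with limma 3.58.1 in R 4.3.3 (lmFit and eBayes) with Benjamini-Hochberg adjustment over all genes, for 14 arrays and for each replicate set. Scan day with genotype as covariate and the genotype by scan-day interaction were fitted too. Two-sided exact permutation tests and tables used Python 3.11.15. The genotype fit of 14 arrays was run on simulated data with independent noise and larger changes than the members showed. That run does not tell how well differences as small as the members' are found. The number of arrays limits the precision. Members and lists were chosen with earlier results of these data known. Values are given for the 6 members with the lowest p over 14 arrays, the 6 with the largest interaction and the brightest of each complex, and from other lists for up to 3 genes per direction past an unadjusted p under 0.05. Other members were named to complete a count or complex. Some single marker genes are not reported here.

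Same-numbered arrays deviated together from their group means (r = 0.156 to 0.533 for the 7 pairs), which came with the shared scan day: with day means removed r was -0.408 to 0.248. The alternatives were other scalings, background correction, filters, blocks, array weights, the series table, and leaving out each array.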

Additional observations from a re-analysis of the deposited data

How the results depend on the processing

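The count of members past an unadjusted p under 0.05 over 14 arrays (1) was 0 with median centring, no scaling, no filter on dim probes, the replicate block, and slide as a fixed or random block. Weighting arrays with an intensity trend gave 5, and leaving out single arrays 0 to 1. Over all 24908 genes the count was 868, and 4623 with that weighting. In replicates 4 to 7 the count of 5 was 3 with median centring, 0 without scaling, 4 with the replicate block and 1 to 13 when arrays were left out. Over all genes these counts were 5804, then 5676, 4174, 5784 and 4113 to 6985. Between scan days the count of 14 after adjustment was 9 without scaling, 0 in the series table and 9 to 19 when arrays were left out. Over all genes these counts were 9659, then 7819, 0 and 8232 to 9669. Leaving out arrays gave member medians of 0.057 to 0.127 (14 arrays), -0.067 to 0.115 (replicates 1 to 3) and 0.093 to 0.203 (replicates 4 to 7).

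Signs turned with slide as a fixed block for Cox5a (-0.04), Ndufa8 (-0.064), Ndufb3 (-0.087), Ndufb7 (-0.017), Sdha (-0.092) and Sting1 (-0.09). Only slides 1 and 2 hold both genotypes, so that fit compares 3 WT with 2 Sting gt/gt arrays of scan day 1. Sdha was also negative without scaling (-0.035), in the series table (-0.017) and under the random slide block (-0.076), and -0.023 to 0.091 when arrays were left out. Sting1 was -0.019 without scaling, -0.01 under the random slide block, and -0.007 to 0.076 when arrays were left out. The cause was not tested.

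Over all genes, the count past an unadjusted p under 0.05 (868) was 1928 in the series table, 4623 with array weights, 1416 with the replicate block, 1812 with scan day as a block, 444 with slide as a random block, 1967 without Sting gt/gt replicate 1, and 539 and 496 without Sting gt/gt replicates 5 and 6. The adjusted count in replicates 4 to 7 (425) was 0 with the replicate block and 1 to 1882 when arrays were left out. Slides, colony and cell makeup limit what the genotype comparison can tell apart.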
